A study of Homo sapiens with 12 samples.

Results

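Untreated ATG7 KO cells were compared with untreated wild type (WT) cells of HLE-B3, a human lens epithelial line that was immortalized, by RNA-seq of 3 libraries per genotype. These are 6 of the 12 libraries of the series and hold counts for 58735 genes. Both groups were collected at 0 h without H2O2, and the comparison asks how the transcriptomes of the lines differ before oxidative stress. The other 6 libraries come from the same lines after 200 μM H2O2 for 12 h and are given beside the untreated values. In the ATG7 KO group the ATG7 gene was targeted with CRISPR/Cas9, after which cells were selected with puromycin and clones were picked singly. No such selection is described for WT cells, and the labels do not say which clone or clones were sequenced, so the ATG7 edit and the history of a clone cannot be told apart here. Libraries of a group are biological replicates according to the study, and the p-values measure the spread between them.

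Autophagy carries cytoplasmic material to the lysosome in a double membrane, the autophagosome. ATG7 is the activating enzyme of the ubiquitin-like conjugation reactions that attach LC3 family proteins to this membrane and join ATG12 to ATG5. Lens epithelial cells cover the front of the lens, where they divide and give rise to the lens fibres, and their loss has been tied to age-related cataract.

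The libraries held between 16698076 and 17659496 reads on genes. ATG7 KO replicate 1 stood apart. The Pearson correlation of its log2 CPM (read counts scaled to library size) with the other two ATG7 KO libraries was 0.969 to 0.97 across genes, against 0.993 between those libraries and 0.992 to 0.993 among the WT libraries. Its short genes were higher and its long genes lower than in WT, from a median log2 CPM difference of 0.45 in the second of 10 groups of genes by length to -0.58 in the longest group, while replicates 2 and 3 stayed between -0.04 and 0.06. Cytosolic ribosomal protein genes took 6.02% of its reads and 3.31% to 3.46% of the reads of the other 5 libraries. Counts of genes and list members are given with all 6 libraries and without this library. Defining markers of the lens epithelium were mostly low or absent in both lines. Of 22, 5 had a mean above 1 FPKM (fragments per kilobase of gene length, scaled to the size of the library) in each line. CRYAA, EYA1, EYA2, SOX1 and SOX2 were listed at 0 in all 6 libraries. The 22 markers together came to 48.4 to 50 FPKM in WT and 40.2 to 44.1 FPKM in ATG7 KO cells, so some of them were expressed. The RNA comes from bulk cells, in which fewer cells of a type and less RNA per cell cannot be told apart.

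Of 15357 genes tested, 679 were higher in ATG7 KO cells (4.42%) and 503 were lower (3.28%) at an adjusted p below 0.01 in the quasi-likelihood test of edgeR, which is what "passed" means below. When a log2 fold change beyond 1 and a mean above 1 FPKM in at least 1 group were also required, 349 genes were higher (2.27%) and 189 were lower (1.23%). These 538 genes are called differentially expressed. With ATG7 KO replicate 1 left out the spread between replicates was smaller, with a biological coefficient of variation of 0.0406 in place of 0.162, and 2891 genes were higher (18.2%) and 2843 lower (17.9%) of 15848 tested. Of these, 426 higher (2.69%) and 259 lower (1.63%) genes were differentially expressed, and they held 488 of the 538. Leaving out any WT library instead left 180 to 181 higher and 107 to 113 lower genes that passed, and leaving out ATG7 KO replicate 2 or 3 left 334 to 336 and 197 to 198, at log2 fold changes of the same sign for every gene named below that passed. Where a range in parentheses follows a count of list members, it covers the 6 fits that each leave out 1 library. In the H2O2-treated libraries 27.7% of 15909 genes were higher and 27.9% were lower. Each later count of list members is to be read against the shares over all genes. They are 4.42% higher and 3.28% lower with all 6 libraries, 18.2% and 17.9% without ATG7 KO replicate 1, and 27.7% and 27.9% after H2O2. The 3 ATG7 KO libraries lay above all 3 WT libraries in FPKM for 22.4% of the genes tested and below them for 22.9%.

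ATG7 (ENSG00000197548, chromosome 3 from 11272309 to 11557665 on GRCh38) was not lower in ATG7 KO cells. It had 2.81, 2.64 and 2.21 FPKM in WT and 3.78, 3.42 and 3.43 FPKM in ATG7 KO cells. The ATG7 KO libraries lay above the WT libraries, and the log2 fold change of 0.47 did not pass (standard error 0.12, adjusted p = 0.0348). It passed without ATG7 KO replicate 1, at 0.43 (adjusted p = 6.02e-06). An edit that shifts the reading frame need not lower the mRNA, so these counts do not check the label. The paper checked the deletion in its picked clones by western blotting, that is, on the protein.

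Of 33 tested members of the autophagy machinery, 1 was lower (0 to 11) where 3.28% of all genes were lower. None was higher (0 to 6) where 4.42% of all genes were higher, while 6 were higher at an unadjusted p under 0.05 in the edgeR test and none with DESeq2. PIK3R4, the regulatory subunit of the class III PI3 kinase, fell from 12.0, 11.1 and 10.6 FPKM to 6.23, 7.47 and 7.72 FPKM (log2 fold change -0.65, standard error 0.12, adjusted p = 0.0099). The median log2 fold change of the list was 0.02, beside 0.01 over all genes tested. Without ATG7 KO replicate 1 it was -0.03, with 6 members higher and 11 lower, none beyond a 1 log2 difference, beside 18.2% and 17.9% of all genes. No member of 16 autophagy receptors passed, while 2 were higher and 5 lower at an unadjusted p under 0.05 in the edgeR test and 3 were lower with DESeq2. Leaving out ATG7 KO replicate 1, 2 receptors were higher and 7 lower. SQSTM1, the receptor p62, had 34.4, 33.0 and 35 FPKM in WT and 37.7, 33.9 and 35 FPKM in ATG7 KO cells, and the ranges overlapped. NBR1, a related receptor, was below WT in all 3 ATG7 KO libraries (log2 fold change -0.30, adjusted p = 0.0496), and BNIP3, a mitophagy receptor, had a log2 fold change of -0.77 (adjusted p = 0.0117). Neither passed, and both passed without ATG7 KO replicate 1, at -0.29 (adjusted p = 3.47e-09) and -0.94 (adjusted p = 3.31e-43).

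Among 60 lysosomal genes, 3 were higher (2 to 20) and 1 was lower (0 to 10), beside 4.42% and 3.28% of all genes. LAMP3, a lysosomal membrane protein induced in some stressed cells, rose from 0.180, 0.242 and 0.192 FPKM to 1.35, 1.82 and 1.63 FPKM (log2 fold change 2.95, standard error 0.23, adjusted p = 0.00034). CTSS, the protease cathepsin S, rose from 0.936, 0.861 and 0.879 FPKM to 4.43, 3.21 and 3.36 FPKM (log2 fold change 2.03, adjusted p = 0.000437). The lysosomal cholesterol carrier NPC2 was also higher (log2 fold change 1.10, adjusted p = 0.00982), and GAA, the acid glucosidase of lysosomal glycogen, was the member that was lower. The abundant lysosomal membrane protein LAMP1 had 117 to 120 FPKM in WT and 132 to 138 FPKM in ATG7 KO cells and did not pass (log2 fold change 0.19, adjusted p = 0.191), though it passed without ATG7 KO replicate 1 (0.19, adjusted p = 4.68e-05). The median of the list was 0.11, and without ATG7 KO replicate 1 it was 0.05 with 20 members higher and 10 lower, beside 18.2% and 17.9% of all genes.

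Cytokines and chemokines had the highest median of the lists with more than 2 tested members. Of 27 members tested, 17 rose (12 to 21) and 1 fell (0 to 2), 15 of the 17 by more than 2-fold, where 4.42% of all genes rose. The median log2 fold change was 1.74. Once ATG7 KO replicate 1 was removed, 21 members rose and 2 fell, with a median of 1.67 and a background of 18.2%. Several are known targets of NF-κB, a transcription factor that is held in the cytoplasm by IκB proteins until a stimulus has them degraded. The ELR chemokines CXCL1, CXCL2, CXCL3, CXCL5, CXCL6 and CXCL8, which draw in neutrophils, lie in a cluster on chromosome 4, and their promoters are shown because all 6 genes rose and each holds the κB motif GGAATTTCC. The motif was searched on both strands in the 250 bases before each start of the RefSeq promoter table (GRCh38.p14), and its reverse complement is GGAAATTCC. It was present in 137 of 27305 genes of that table (0.502%), in 58 of 10544 matched genes tested here (0.55%) and in 8 of 27 matched members of the cytokine list (29.6%). The other 2 are TSLP, which did not pass, and CXCL10, which had too few reads to be tested. The 6 genes are paralogs whose promoters share further sequence, so they are not independent examples. Each stretch is written 5′ to 3′ along the gene with the motif in capitals.
CXCL8, chr4:73740453-73740511, plus strand, motif 91 to 83 bases before the start: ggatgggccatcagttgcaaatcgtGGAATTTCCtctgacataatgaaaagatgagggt
CXCL1, chr4:73869290-73869348, plus strand, 78 to 70 bases before the start: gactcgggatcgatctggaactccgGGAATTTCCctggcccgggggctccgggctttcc
CXCL2, chr4:74099239-74099297, minus strand, 77 to 69 bases before the start: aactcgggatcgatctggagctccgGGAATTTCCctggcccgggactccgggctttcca
CXCL3, chr4:74038734-74038792, minus strand, 78 to 70 bases before the start: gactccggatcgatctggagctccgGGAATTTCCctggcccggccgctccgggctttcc
CXCL5, chr4:73998734-73998792, minus strand, 90 to 82 bases before the start: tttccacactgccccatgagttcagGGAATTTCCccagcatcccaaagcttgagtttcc
CXCL6, chr4:73836564-73836622, plus strand, 89 to 81 bases before the start: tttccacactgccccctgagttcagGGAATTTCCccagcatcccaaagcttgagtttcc

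CXCL8 (interleukin 8, ENSG00000169429, chromosome 4 from 73740506 to 73743716) was the most abundant of them. It had 56.2, 54.4 and 47.3 FPKM in WT and 749, 393 and 431 FPKM in ATG7 KO cells. All ATG7 KO libraries were far above WT and replicate 1 was the highest of them, and the log2 fold change came to 3.31 (adjusted p = 0.000418, standard error 0.26), or 2.98 without that library. CXCL6 rose from 12.8, 12.2 and 10.5 FPKM to 221, 134 and 133 FPKM (log2 fold change 3.78, standard error 0.23, adjusted p = 0.000189). CXCL5 rose from 2.94, 3.0 and 2.04 FPKM to 46.1, 34.0 and 34.8 FPKM (log2 fold change 3.84, standard error 0.20, adjusted p = 0.000125). CXCL1, CXCL2 and CXCL3 rose less, by 2.87 (adjusted p = 0.000342), 2.57 (adjusted p = 0.000299) and 2.12 (adjusted p = 0.00154) on the log2 scale. Among the H2O2-treated libraries the log2 fold changes were 3.21 for CXCL5, 2.67 for CXCL6 and 0.49 for CXCL8 (adjusted p = 1.9e-27, 0.000116 and 6.08e-15). CXCL8 then stood at a mean of 732 FPKM in WT and 1034 FPKM in ATG7 KO cells.

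Interleukins and colony-stimulating factors rose as well. IL1B, the secreted form of interleukin 1, had 6.21, 6.46 and 5.46 FPKM in WT and 64.2, 43.0 and 46.0 FPKM in ATG7 KO cells (log2 fold change 3.08, standard error 0.18, adjusted p = 0.000161). IL1A rose by 1.98 (adjusted p = 0.0004) and IL1R1, the receptor of both, by 0.97 (adjusted p = 0.00856) on the log2 scale. The inflammatory cytokine IL6 had 2.88, 2.39 and 1.71 FPKM in WT and 24.6, 14.3 and 15.8 FPKM in ATG7 KO cells (log2 fold change 2.97, standard error 0.27, adjusted p = 0.000678). These ranges were far apart. CSF3, the granulocyte growth factor G-CSF, was close to absent in WT with 8 reads over the 3 libraries, against 623 reads in ATG7 KO cells. Its levels were 0.103, 0.0490 and 0.0507 FPKM in WT and 8.11, 3.82 and 4.26 FPKM in ATG7 KO cells (log2 fold change 6.25, standard error 0.49, adjusted p = 0.000374). CSF2, or GM-CSF, rose by 2.76 (adjusted p = 0.000687), IL11 by 1.90 (adjusted p = 0.000171) and LIF by 0.81 (adjusted p = 0.00407), the last 2 being cytokines that signal through gp130 as IL6 does. The member that fell was IL33, a nuclear alarmin, with 3.26, 3.11 and 2.41 FPKM in WT and 1.51, 1.54 and 1.44 FPKM in ATG7 KO cells (log2 fold change -0.97, adjusted p = 0.00721). IL33 lies on chromosome 9, where many genes were lower, as described further on. In the H2O2-treated libraries 13 of 28 members were higher and 9 lower, with a median of 0.41, beside 27.7% and 27.9% of all genes.

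The components of the NF-κB pathway moved less than the cytokines. Of 27 tested, 3 rose (0 to 10) and 2 fell (0 to 4), with a median of 0.05. The genes that rose encode proteins that regulate NF-κB: NFKBIA (IκBα) had 49.0, 54.1 and 53.6 FPKM in WT and 166, 113 and 118 FPKM in ATG7 KO cells (log2 fold change 1.34, standard error 0.16, adjusted p = 0.00197). TNFAIP3 (A20), which ends NF-κB signalling, rose by 1.11 (adjusted p = 0.00155), and NFKBIZ, a nuclear IκB protein, by 0.66 (adjusted p = 0.00539) on the log2 scale. PRKCI, the atypical protein kinase C iota, fell from 37.1, 34.5 and 36.4 FPKM to 20.6, 23.2 and 23.4 FPKM (log2 fold change -0.69, adjusted p = 0.00392). RELA, the p65 subunit, had 33.7 to 34.1 FPKM in WT and 24.1, 30.2 and 29.8 FPKM in ATG7 KO cells, and did not pass (log2 fold change -0.28, adjusted p = 0.146), though it passed without ATG7 KO replicate 1 (-0.17, adjusted p = 0.001). After ATG7 KO replicate 1 was left out, 10 members rose and 4 fell, beside 18.2% and 17.9% of all genes. Among the H2O2-treated libraries 5 rose and 13 fell, beside 27.7% and 27.9% of all genes, and NFKBIA and TNFAIP3 were lower in ATG7 KO cells. The same κB motif was present in 5 of 23 matched members (21.7%), namely NFKBIA and NFKBIZ, which rose, and NFKB1, NFKBIB and REL, which did not pass with all 6 libraries. Without ATG7 KO replicate 1 NFKB1 and NFKBIB passed as higher (log2 fold changes 0.29 and 0.40). NFKBIA is shown as the most abundant of those that rose, with the motif on the opposite strand.
NFKBIA, chr14:35404797-35404855, minus strand, motif 81 to 73 bases before the start: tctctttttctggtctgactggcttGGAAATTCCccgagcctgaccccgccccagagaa

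C3, the central protein of the complement cascade, had the highest log2 fold change of the differentially expressed genes with more than 1 FPKM in both groups. C3 (ENSG00000125730, chromosome 19 from 6677704 to 6730562) had 2.16, 2.28 and 1.67 FPKM in WT and 28.1, 47.3 and 44.4 FPKM in ATG7 KO cells. The log2 fold change of C3 reached 4.29 (standard error 0.25, adjusted p = 0.000164), 4.50 without ATG7 KO replicate 1 and 3.64 in the H2O2-treated libraries (adjusted p = 7.33e-31). Here replicate 1 was the lowest ATG7 KO library, unlike for the chemokines. Of 16 complement genes C3 was the one that rose (1 to 4) and 1 fell (0 to 4), with a median of 0.13. Leaving out replicate 1, 4 of 18 rose and 4 fell, and in the H2O2-treated libraries 4 rose and 11 fell, with a median of -0.51.

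Of 41 interferon-stimulated genes, 7 rose (2 to 16) and 2 fell (0 to 6), with a median of 0.32. IFI44L rose from 0.516, 0.616 and 0.396 FPKM to 2.18, 1.98 and 1.96 FPKM (log2 fold change 2.0, standard error 0.17, adjusted p = 0.000577). Its neighbour IFI44 rose by 1.58 (adjusted p = 0.00168) and IFIT3, an RNA-binding antiviral protein, by 0.92 (adjusted p = 0.00241) on the log2 scale. Among 17 genes of MHC class I presentation 2 rose, the immunoproteasome subunit PSMB9 (log2 fold change 1.64, adjusted p = 0.00677) and the peptidase ERAP2 (log2 fold change 0.57, adjusted p = 0.0048), and the median was 0.41. With ATG7 KO replicate 1 left out these lists had 16 higher and 6 lower of 42, and 12 higher and 1 lower of 17. The shares over all genes were then 18.2% and 17.9%.

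Genes of the amino acid response of the transcription factor ATF4 went the other way. ATF4 is translated more when amino acids run short and switches on genes for amino acid synthesis and import. Of 24 members tested, 9 fell (4 to 15) and 1 rose (0 to 3), where 3.28% of all genes fell, 8 of the 9 fell by more than 2-fold, and the median was -0.58. Without ATG7 KO replicate 1, 15 fell and 3 rose, beside 17.9% of all genes that fell, and the median was -0.52. In the H2O2-treated libraries 16 fell and 2 rose. The mRNA of ATF4 itself had 107, 102 and 111 FPKM in WT and 151, 101 and 98.9 FPKM in ATG7 KO cells, and the ranges overlapped (log2 fold change 0.13, adjusted p = 0.609). The promoters of ASNS and CHAC1 are shown because both genes fell and hold TGATGNAA, the core of the C/EBP-ATF response element, which does not overlap the κB motif. Searched in the same way, it was present in 1061 of 27305 genes (3.89%), in 247 of 10544 tested genes (2.34%) and in 3 of 20 matched members of this list (15%), the other being FGF21, which had too few reads to be tested. The motif is in capitals, and in CHAC1 it lies on the opposite strand.
ASNS, chr7:97872444-97872501, minus strand, motif 68 to 61 bases before the start: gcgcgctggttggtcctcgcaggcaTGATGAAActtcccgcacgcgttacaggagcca
CHAC1, chr15:40953237-40953294, plus strand, motif 209 to 202 bases before the start: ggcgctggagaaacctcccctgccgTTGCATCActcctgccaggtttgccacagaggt

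SLC7A5, which imports leucine and other large neutral amino acids, was close to absent in ATG7 KO cells. SLC7A5 (ENSG00000103257, chromosome 16 from 87830023 to 87869488) had 4.41, 5.0 and 4.11 FPKM in WT and 0.0767, 0.106 and 0.0569 FPKM in ATG7 KO cells, or 1147 against 20 reads over the 3 libraries of a group. On the log2 scale SLC7A5 fell by 5.79 (standard error 0.22, adjusted p = 6.6e-05), and the log2 fold change was -6.95 in the H2O2-treated libraries (adjusted p = 9.48e-25). NUPR1, a small stress-induced chromatin protein, fell from 1.48, 1.36 and 1.58 FPKM to 0.107, 0.0495 and 0.114 FPKM (log2 fold change -4.01, adjusted p = 0.000225). ASNS, the asparagine synthetase, fell from 0.799, 0.915 and 0.847 FPKM to 0.0408, 0.113 and 0.121 FPKM (log2 fold change -3.18, standard error 0.34, adjusted p = 0.00123). Of the serine synthesis enzymes, PSAT1 had 74.0, 69.3 and 69.8 FPKM in WT and 24.6, 19.1 and 20.05 FPKM in ATG7 KO cells (log2 fold change -1.74, adjusted p = 0.000225), and PHGDH fell by 0.92 on the log2 scale (adjusted p = 0.00788). PSAT1 lies on chromosome 9. CHAC1, which degrades glutathione, had 2.87, 3.67 and 3.39 FPKM in WT and 1.36, 0.954 and 0.787 FPKM in ATG7 KO cells (log2 fold change -1.69, adjusted p = 0.00357). The mitochondrial folate enzyme ALDH1L2 had a log2 fold change of -1.97 (adjusted p = 0.00757) and the lipoprotein receptor VLDLR of -1.87 (adjusted p = 0.000108). CBS, which makes cystathionine from homocysteine, had a log2 fold change of -1.96 (adjusted p = 0.00665), but it passed in none of the 6 fits that leave out 1 library. The adjusted p of CBS was 0.0515 without ATG7 KO replicate 1, and its reads may be shared with a near-identical copy of the gene. The member that rose was CEBPB, a transcription factor that also acts in inflammation, from 46.4, 46.9 and 43.2 FPKM to 126, 87.2 and 83.2 FPKM (log2 fold change 1.12, adjusted p = 0.00477).

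**Figure D1:**
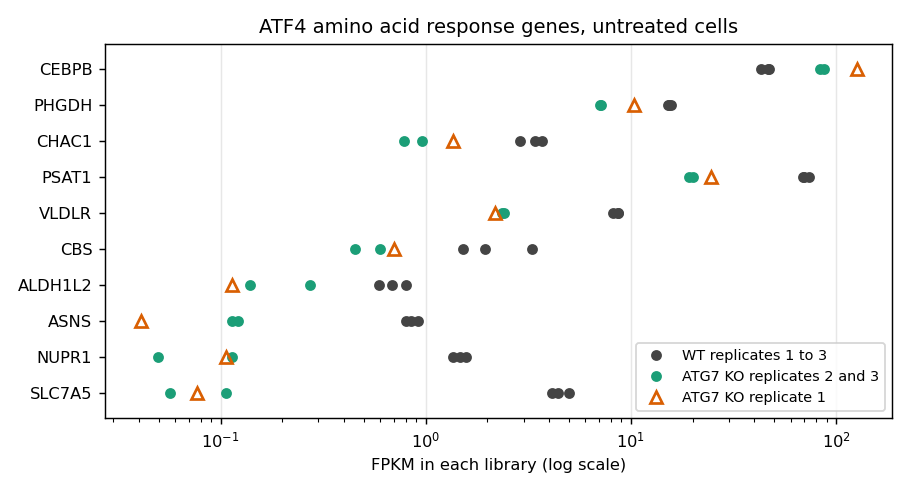
FPKM in each untreated library (horizontal axis, log scale) of the 10 genes of the ATF4 amino acid response that passed. The ATG7 KO libraries lie below all WT libraries for 9 genes and above them for CEBPB, and SLC7A5 falls from 4.11 to 5.0 FPKM in WT to 0.0569 to 0.106 FPKM in ATG7 KO cells.

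The remaining differentially expressed genes with the largest changes belong to several groups. BEX1, a small brain-expressed X-linked protein, had 87.1, 94.4 and 92.7 FPKM in WT and 3.86, 1.23 and 1.31 FPKM in ATG7 KO cells (ENSG00000133169, log2 fold change -5.44, standard error 0.37, adjusted p = 0.000225). Its value without ATG7 KO replicate 1, the highest ATG7 KO library, was -6.15. IGFBP3, which binds insulin-like growth factors in the extracellular space, had 217, 207 and 222 FPKM in WT and 15.2, 14.5 and 15.7 FPKM in ATG7 KO cells. Its replicates were close in both groups, the log2 fold change was -3.83 with and without ATG7 KO replicate 1 (standard error 0.11, adjusted p = 2.12e-05), and it was -3.09 in the H2O2-treated libraries (adjusted p = 2.98e-34). G0S2, an inhibitor of the lipase ATGL, rose from 21.2, 22.3 and 21.1 FPKM to 382, 198 and 179 FPKM (log2 fold change 3.55, standard error 0.30, adjusted p = 0.000515). SRPX, an extracellular sushi-domain protein, had a log2 fold change of 3.76 (adjusted p = 0.000159).

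Other genes among the 10 with the largest falls follow. GFRA1, the co-receptor of the neurotrophic factor GDNF, fell from 17.4, 16.6 and 17.6 FPKM to 1.85, 3.33 and 3.44 FPKM (log2 fold change -2.58, adjusted p = 0.000662). OXTR, the oxytocin receptor, fell from 26.9, 27.0 and 28.9 FPKM to 4.69, 5.74 and 5.92 FPKM (log2 fold change -2.34, standard error 0.12, adjusted p = 0.000121). The mitochondrial adenylate kinase AK4, the melanotransferrin gene MELTF, the G protein regulator RGS4 and the junction protein JAM3 had log2 fold changes of -2.03, -2.01, -1.99 and -1.97 (adjusted p = 6.71e-05, 0.000225, 0.000161 and 0.000116).

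Some genes had no reads in 1 of the groups, and their fold is a lower bound against 3 counts per library. AKR1C1, an aldo-keto reductase of steroid and aldehyde metabolism, was at 0 in all WT libraries and had 1.70, 1.10 and 0.924 FPKM in ATG7 KO cells, at least 63.7-fold higher. AKR1C3 had 9 reads over the WT libraries and 1686 over the ATG7 KO libraries, and levels of 10.4, 5.55 and 5.47 FPKM in the latter (log2 fold change 7.53, adjusted p = 0.000182). These genes and AKR1C2 are close paralogs that can share reads, so the split between them is uncertain. EDNRB, the endothelin B receptor, was at least 19.8-fold higher in ATG7 KO cells. In the other direction RNF180, a ubiquitin ligase, had no read in ATG7 KO cells and was at least 13.7-fold lower. EDNRB and RNF180 were chosen after their values were seen.

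Among 27 collagens 5 rose (2 to 11) and none fell, with a median of -0.01. At an unadjusted p under 0.05 in the edgeR test 3 were lower, and 1 was lower with DESeq2. COL16A1, a minor fibril-associated collagen, rose from 0.929, 0.997 and 0.790 FPKM to 4.17, 3.86 and 3.91 FPKM (log2 fold change 2.13, standard error 0.12, adjusted p = 0.000159). COL7A1, which forms the anchoring fibrils under epithelia, rose from 11.3, 13.0 and 10.2 FPKM to 30.0, 35.6 and 32.2 FPKM (log2 fold change 1.5, adjusted p = 0.000616). The basement membrane collagen COL4A6 and the network-forming COL8A2 had log2 fold changes of 1.87 (adjusted p = 0.000995) and 1.48 (adjusted p = 0.00244). The fibrillar collagen COL1A1 was far more abundant, with 619, 645 and 613 FPKM in WT and 340, 492 and 480 FPKM in ATG7 KO cells, and did not pass (log2 fold change -0.52, adjusted p = 0.0693). It passed without ATG7 KO replicate 1 at -0.36 (adjusted p = 3.33e-14). Without that library 11 collagens rose and 5 fell, beside 18.2% and 17.9% of all genes.

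Integrins and laminins, the receptors for the basement membrane and its main proteins, rose in 6 of 25 members (2 to 18) and fell in none, with a median of 0.45. None was lower at an unadjusted p under 0.05 in the edgeR test or with DESeq2 either. The epithelial laminin chain LAMB3 had 15.4, 16.6 and 14.3 FPKM in WT and 43.5, 49.3 and 47.6 FPKM in ATG7 KO cells (log2 fold change 1.60, standard error 0.11, adjusted p = 0.000224). LAMB1, ITGA1 and ITGA7, the last 2 being subunits of collagen and laminin receptors, had log2 fold changes of 0.79, 1.21 and 1.16 (adjusted p = 0.00481, 0.00332 and 0.00256). ITGB1, the shared beta subunit, had 367 to 407 FPKM in WT and 385 to 392 FPKM in ATG7 KO cells, and the ranges overlapped. Once ATG7 KO replicate 1 was removed, 18 of 26 members rose and 1 fell, with a median of 0.62, beside 18.2% and 17.9% of all genes. Among the H2O2-treated libraries 17 rose and 4 fell, beside 27.7% and 27.9%.

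Of 29 other matrix proteins, 4 rose (1 to 9) and 7 fell (4 to 13), with a median of -0.35. LUM, the leucine-rich proteoglycan lumican, rose from 0.191, 0.108 and 0.206 FPKM to 11.7, 8.53 and 8.30 FPKM (log2 fold change 5.80, standard error 0.26, adjusted p = 6.71e-05). FBLN2, the elastic fibre protein fibulin 2, went from 2.56, 2.62 and 3.05 FPKM to 0.0882, 0.140 and 0 FPKM, or from 708 to 19 reads (log2 fold change -5.17, adjusted p = 0.000964). The small proteoglycan BGN (biglycan), the collagen cross-linking enzyme LOX and the collagen-binding protein SPARC had log2 fold changes of -2.21, -1.21 and -0.68 (adjusted p = 0.000261, 0.000437 and 0.00363). LOX had 65.8, 64.1 and 65.7 FPKM in WT and 26.1, 28.4 and 30.1 FPKM in ATG7 KO cells. ABI3BP, a matrix protein outside this list, fell from 15.4, 14.0 and 13.8 FPKM to 1.52, 2.73 and 2.93 FPKM (log2 fold change -2.58, adjusted p = 0.000727). The cell-binding protein THBS1 rose from 33.5, 34.8 and 29.7 FPKM to 70.0, 88.2 and 94.6 FPKM (log2 fold change 1.37, adjusted p = 0.00133). Cell adhesion molecules had 4 members higher (1 to 9) and 6 lower (1 to 11) of 29, and 9 higher and 11 lower without ATG7 KO replicate 1. NRCAM, a neuronal adhesion protein, had a log2 fold change of 3.22 (adjusted p = 0.0003), the tight junction protein CLDN1 of 0.89 (adjusted p = 0.00146), the cadherin CDH10 of -2.63 (adjusted p = 0.00168) and NCAM2 of -1.30 (adjusted p = 0.00112). The main cadherin of these cells, CDH2, had 159 to 169 FPKM in WT and 153 to 184 FPKM in ATG7 KO cells, which overlap, and it passed without ATG7 KO replicate 1 (log2 fold change 0.17, adjusted p = 0.000239).

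Matrix proteases and their inhibitors rose in 10 of 28 members (5 to 16) and fell in 3 (1 to 6), with a median of 0.57. SERPINB2, an inhibitor of urokinase, rose from 13.5, 12.2 and 10.3 FPKM to 119, 91.2 and 99.4 FPKM (log2 fold change 3.10, standard error 0.15, adjusted p = 0.000104). PLAU, the urokinase it inhibits, rose from 17.1, 18.1 and 17.0 FPKM to 84.9, 66.9 and 66.2 FPKM (log2 fold change 2.06, standard error 0.12, adjusted p = 0.000178). Both the protease and its inhibitor were thus higher. The gelatinase MMP9 rose from 1.72, 1.33 and 1.30 FPKM to 6.80, 7.23 and 6.94 FPKM (log2 fold change 2.27, adjusted p = 0.000202). The metalloproteinase inhibitors TIMP3 and TIMP1 had log2 fold changes of 2.54 (adjusted p = 0.000406) and 1.45 (adjusted p = 0.0057), TIMP1 from 37.1, 34.9 and 33.9 FPKM to 136, 78.0 and 76.1 FPKM. After ATG7 KO replicate 1 was left out, 16 members rose and 6 fell, with a median of 0.63.

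Among 41 genes of TGF-β and BMP signalling and the epithelial to mesenchymal transition, 7 rose (2 to 17) and 3 fell (0 to 10). INHBA, the subunit of activin A, rose from 1.85, 2.12 and 1.92 FPKM to 14.8, 16.5 and 17.8 FPKM (log2 fold change 3.06, standard error 0.12, adjusted p = 6.71e-05). GREM1, a secreted BMP antagonist, rose from 5.76, 5.33 and 4.95 FPKM to 47.2, 41.1 and 42.7 FPKM (log2 fold change 3.03, standard error 0.12, adjusted p = 6.6e-05). NOG, the BMP antagonist noggin, rose by 1.07 (adjusted p = 0.00985), and SMAD6, an inhibitory SMAD that BMPs induce, fell by 1.28 (adjusted p = 0.00193) on the log2 scale. Among known targets of the Hippo pathway factor YAP, 6 of 20 members fell (1 to 10) and 1 rose (0 to 3), with a median of -0.37, and 10 fell and 3 rose without ATG7 KO replicate 1, with a median of -0.24. The matricellular protein CYR61 fell from 336, 331 and 344 FPKM to 189, 172 and 172 FPKM (log2 fold change -0.93, standard error 0.10, adjusted p = 0.00102). Its relative CTGF, the muscle ankyrin repeat protein ANKRD1, the transmembrane protein CRIM1 and the angiomotin AMOTL2 had log2 fold changes of -1.12, -1.18, -1.38 and -0.95 (adjusted p = 0.000537, 0.00168, 0.00374 and 0.00914).

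Growth factors and receptors had 5 members higher (1 to 13) and 5 lower (1 to 10) of 31, and 13 higher and 10 lower without ATG7 KO replicate 1. FLT1, a VEGF receptor, had a log2 fold change of 2.95 (adjusted p = 0.00034) at a mean level under 2 FPKM, and the fibroblast growth factor FGF2 rose from 16.9, 17.2 and 17.1 FPKM to 30.1, 29.7 and 31.1 FPKM (log2 fold change 0.83, adjusted p = 0.001). FGF5 fell from 13.2, 13.4 and 13.5 FPKM to 4.07, 4.71 and 4.93 FPKM (log2 fold change -1.55, adjusted p = 0.000225), and the receptor FGFR3 and the neurotrophin BDNF had log2 fold changes of -1.17 (adjusted p = 0.00111) and -1.07 (adjusted p = 0.00125). WNT5A, a ligand of noncanonical WNT signalling, rose from 2.74, 2.26 and 2.43 FPKM to 7.78, 8.47 and 9.55 FPKM (log2 fold change 1.80, adjusted p = 0.000242), while 1 further member of 33 WNT and NOTCH genes, the WNT antagonist SFRP1, rose (log2 fold change 0.97, adjusted p = 0.00294) and 1, the NOTCH ligand JAG2, fell (log2 fold change -1.0, adjusted p = 0.00624). Of these 33 genes 8 were higher and 12 lower without ATG7 KO replicate 1, beside 18.2% and 17.9% of all genes. Of 13 genes of the insulin-like growth factor axis 2 rose (1 to 8) and 1 fell (1 to 3), and 8 rose and 3 fell without ATG7 KO replicate 1. IGFBP3 was the one that fell, and IGFBP4 and the glycoprotein hormone STC1 rose by 1.05 (adjusted p = 0.00518) and 1.92 (adjusted p = 0.00034) on the log2 scale. The MAP kinase phosphatases went in different directions: DUSP4 and DUSP6, which are induced by ERK signalling, rose by 2.54 (adjusted p = 0.000252) and 1.62 (adjusted p = 0.00107), and DUSP2 fell from 5.76, 5.60 and 5.16 FPKM to 0.659, 0.320 and 0.280 FPKM (log2 fold change -3.72, adjusted p = 0.00034, -4.18 without ATG7 KO replicate 1). IER3, an early response gene with roles in survival, rose from 92.3, 84.6 and 79.9 FPKM to 305, 196 and 205 FPKM (log2 fold change 1.46, adjusted p = 0.00229). IER3 and these phosphatases are among 34 early response genes tested, of which 6 rose (1 to 9) and 3 fell (1 to 7). The median was 0.03. Without ATG7 KO replicate 1, 9 rose and 7 fell. In the H2O2-treated libraries 4 rose and 28 fell, beside 27.7% and 27.9% of all genes.

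The NRF2 pathway, which protects against oxidants and electrophiles, had 9 members higher (5 to 18) and none lower of 33, with a median of 0.34. At an unadjusted p under 0.05 in the edgeR test 1 was lower, as with DESeq2. The mRNA of NRF2 itself, NFE2L2, had 12.1 to 13.4 FPKM in WT and 12.4 to 15.5 FPKM in ATG7 KO cells. AKR1B1, the aldose reductase that forms sorbitol in the lens, rose from 31.5, 28.9 and 29.0 FPKM to 176, 112 and 106 FPKM (log2 fold change 2.13, standard error 0.20, adjusted p = 0.000734). The ferritin heavy chain FTH1, which stores iron, rose from 142, 137 and 130 FPKM to 413, 336 and 339 FPKM (log2 fold change 1.41, standard error 0.12, adjusted p = 0.00047). The quinone reductase NQO1 rose from 15.2, 13.3 and 12.9 FPKM to 34.6, 22.7 and 24.0 FPKM (log2 fold change 0.97, adjusted p = 0.00904). GCLM, the modifier subunit of the enzyme that limits glutathione synthesis, and the export pump ABCC3 rose by 0.72 (adjusted p = 0.00311) and 1.93 (adjusted p = 0.00034) on the log2 scale. Other members did not pass: TXNRD1 had 125 to 133 FPKM in WT and 107 to 126 FPKM in ATG7 KO cells (log2 fold change -0.13, adjusted p = 0.429), and HMOX1 had a log2 fold change of 0.32 (adjusted p = 0.186). With ATG7 KO replicate 1 left out, 18 members rose and 3 fell, with a median of 0.29. Among 34 antioxidant enzymes, 3 rose (0 to 12) and 1 fell (0 to 6), beside 4.42% and 3.28% of all genes, and 12 rose and 6 fell without ATG7 KO replicate 1. SOD2, the mitochondrial superoxide dismutase and a known NF-κB target, rose from 23.7, 22.97 and 20.1 FPKM to 70.8, 49.3 and 53.3 FPKM (log2 fold change 1.37, adjusted p = 0.0017), and TXNIP, the inhibitor of thioredoxin, fell from 25.8, 23.5 and 24.2 FPKM to 12.5, 9.52 and 11.1 FPKM (log2 fold change -1.15, adjusted p = 0.00102). GCLM and TXNRD1 were chosen after their values were seen.

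Of 15 BCL2 family members 3 rose (0 to 9) and none fell, with a median of 0.38. None was lower at an unadjusted p under 0.05 in the edgeR test or with DESeq2. They differ in role, since BCL2L2 (BCL-W) protects cells from apoptosis and BMF and PMAIP1 (NOXA) promote it. BCL2L2 had 5.11, 5.48 and 4.85 FPKM in WT and 10.8, 10.2 and 11.5 FPKM in ATG7 KO cells (log2 fold change 1.07, standard error 0.10, adjusted p = 0.000728). BMF rose by 1.27 (adjusted p = 0.00357) and PMAIP1 by 0.76 (adjusted p = 0.00982) on the log2 scale. Among 29 caspases, death receptors and inhibitors of apoptosis, 4 rose (1 to 12) and 1 fell (0 to 4), or 12 and 4 without ATG7 KO replicate 1. Those that rose include the initiator caspase CASP8 (log2 fold change 0.70, adjusted p = 0.00791), its adaptor FADD (0.96, adjusted p = 0.00208) and the receptor TNFRSF21 (1.15, adjusted p = 0.000592). TNFRSF11B also rose, with the largest change of the members that passed above 1 FPKM, and is not counted among the genes named here. Without ATG7 KO replicate 1, 9 BCL2 family members rose and none fell.

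None of 30 mitotic genes and none of 36 genes of DNA replication passed, with medians of -0.07 and 0.05. At an unadjusted p under 0.05 in the same edgeR test, 3 mitotic genes were higher and 2 lower, and 8 replication genes were higher and 3 lower. DESeq2 called 1 mitotic gene lower and 1 replication gene in each direction. Once ATG7 KO replicate 1 was removed, 6 mitotic genes rose and 8 fell and 12 replication genes rose and 4 fell, all by less than 2-fold. Over all genes 18.2% rose and 17.9% fell in that fit. CDKN1A (p21) had 48.3 to 50.3 FPKM in WT and 46.1 to 51.1 FPKM in ATG7 KO cells. CDKN2B, the inhibitor p15, fell from 11.6, 11.3 and 10.96 FPKM to 6.96, 7.12 and 6.93 FPKM (log2 fold change -0.69, adjusted p = 0.00243), and it lies on chromosome 9. Of 24 p53 targets 1 rose (0 to 4) and 2 fell (1 to 10). Without ATG7 KO replicate 1, 4 rose and 10 fell, beside 18.2% and 17.9% of all genes. The kinase PLK3 rose by 1.18 (adjusted p = 0.00215), and PLK2 fell from 76.1, 74.6 and 77.4 FPKM to 32.2, 27.7 and 29.8 FPKM (log2 fold change -1.35, adjusted p = 0.000261). The chromatin proteins HMGA1 and HMGA2 were both higher. HMGA1 had 268, 272 and 267 FPKM in WT and 601, 612 and 592 FPKM in ATG7 KO cells (log2 fold change 1.16, standard error 0.09, adjusted p = 0.000424). HMGA2 had 10.3, 10.4 and 9.90 FPKM in WT and 31.0, 34.2 and 34.5 FPKM in ATG7 KO cells (log2 fold change 1.70, adjusted p = 0.000161). HOXB9, a homeobox gene, fell from 64.1, 63.8 and 63.0 FPKM to 25.3, 31.5 and 31.0 FPKM (log2 fold change -1.12, adjusted p = 0.00101).

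In metabolism, 4 of 32 genes of cholesterol and fatty acid synthesis rose (0 to 17) and none fell, with a median of 0.29. At an unadjusted p under 0.05 in the edgeR test 2 were lower, and none with DESeq2. INSIG1, the sterol sensor of the endoplasmic reticulum, rose from 17.3, 14.8 and 15.9 FPKM to 38.6, 28.5 and 30.8 FPKM (log2 fold change 1.02, adjusted p = 0.00276), and the enzymes SQLE, MSMO1 and HMGCS1 had log2 fold changes of 0.77, 0.76 and 0.75 (adjusted p = 0.00628, 0.00983 and 0.00263). After ATG7 KO replicate 1 was left out, 17 members rose and 3 fell. In the H2O2-treated libraries 2 rose and 18 fell, with a median of -0.29. Glycolysis had no member higher and 3 lower (1 to 14) of 25, beside 3 higher at an unadjusted p under 0.05 in the edgeR test and 2 higher with DESeq2. Leaving out ATG7 KO replicate 1, 5 were higher and 14 lower. Hexokinase 2 (HK2) fell from 6.49, 6.34 and 6.51 FPKM to 1.64, 2.64 and 2.53 FPKM (log2 fold change -1.5, adjusted p = 0.00213), the pyruvate dehydrogenase kinase PDK1 had a log2 fold change of -1.04 (adjusted p = 0.000616) and the enolase ENO2 of -0.78 (adjusted p = 0.00603). CA9, the carbonic anhydrase known as a hypoxia marker, fell from 7.15, 6.51 and 5.90 FPKM to 0.545, 0.907 and 0.906 FPKM (log2 fold change -3.04, standard error 0.22, adjusted p = 0.000276). Of the hypoxia genes NDRG1 (log2 fold change 1.11, adjusted p = 0.0028) and the collagen prolyl hydroxylase P4HA2 (1.02, adjusted p = 0.000786) rose, so that 2 of 19 rose (0 to 6) and 4 fell (2 to 7), or 6 and 7 without ATG7 KO replicate 1. PINK1, the kinase that marks damaged mitochondria for mitophagy, rose from 14.6, 14.8 and 14.1 FPKM to 22.7, 27.5 and 26.9 FPKM (log2 fold change 0.83, adjusted p = 0.00281). Of 20 genes of mitophagy and mitochondrial biogenesis it was the one that rose (0 to 4) and 1 fell (0 to 8), with a median of -0.05. The member that fell was OPA1, which is not counted among the genes named here. Without ATG7 KO replicate 1, 4 rose and 8 fell, beside 18.2% and 17.9% of all genes.

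The medians of several lists of housekeeping genes moved with ATG7 KO replicate 1. Cytosolic ribosomal protein genes had a median of 0.38 over 80 members, and 0.05 without that library, with 21 higher and 15 lower. None passed with all 6 libraries, while 10 were higher and none lower at an unadjusted p under 0.05 in the edgeR test and 2 were higher with DESeq2. For 77 nuclear genes of the respiratory chain the median went from 0.39 to 0.06, with 17 higher and 10 lower without that library. For 78 mitochondrial ribosomal proteins it went from 0.28 to 0.05, with 13 higher and 12 lower. Without that library 18.2% of all genes were higher and 17.9% lower. Among the 13 mitochondrially encoded mRNAs none passed, with a median of -0.16, while 1 was higher and 2 lower at an unadjusted p under 0.05 in the edgeR test and 1 was lower with DESeq2. Of them 2 rose and 5 fell without ATG7 KO replicate 1. Proteasome subunits had 3 members higher (0 to 12) and 1 lower (0 to 3) of 37, or 12 and 3 without ATG7 KO replicate 1, and PSMB5, a catalytic subunit, rose from 49.97, 51.4 and 53.4 FPKM to 185, 103 and 102 FPKM (log2 fold change 1.33, adjusted p = 0.00872). PSMB5 lies on chromosome 14. None of 23 endoplasmic reticulum chaperones and unfolded protein response genes passed, with a median of 0.19, while 7 were higher and 3 lower at an unadjusted p under 0.05 in the edgeR test and 4 were higher with DESeq2. Leaving out ATG7 KO replicate 1, 8 were higher and 5 lower, with a median of 0.06. Of 15 heat shock protein genes 1 fell (0 to 7), beside 3.28% of all genes, and without ATG7 KO replicate 1, 2 of 16 rose and 7 fell.

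**Figure D2:**
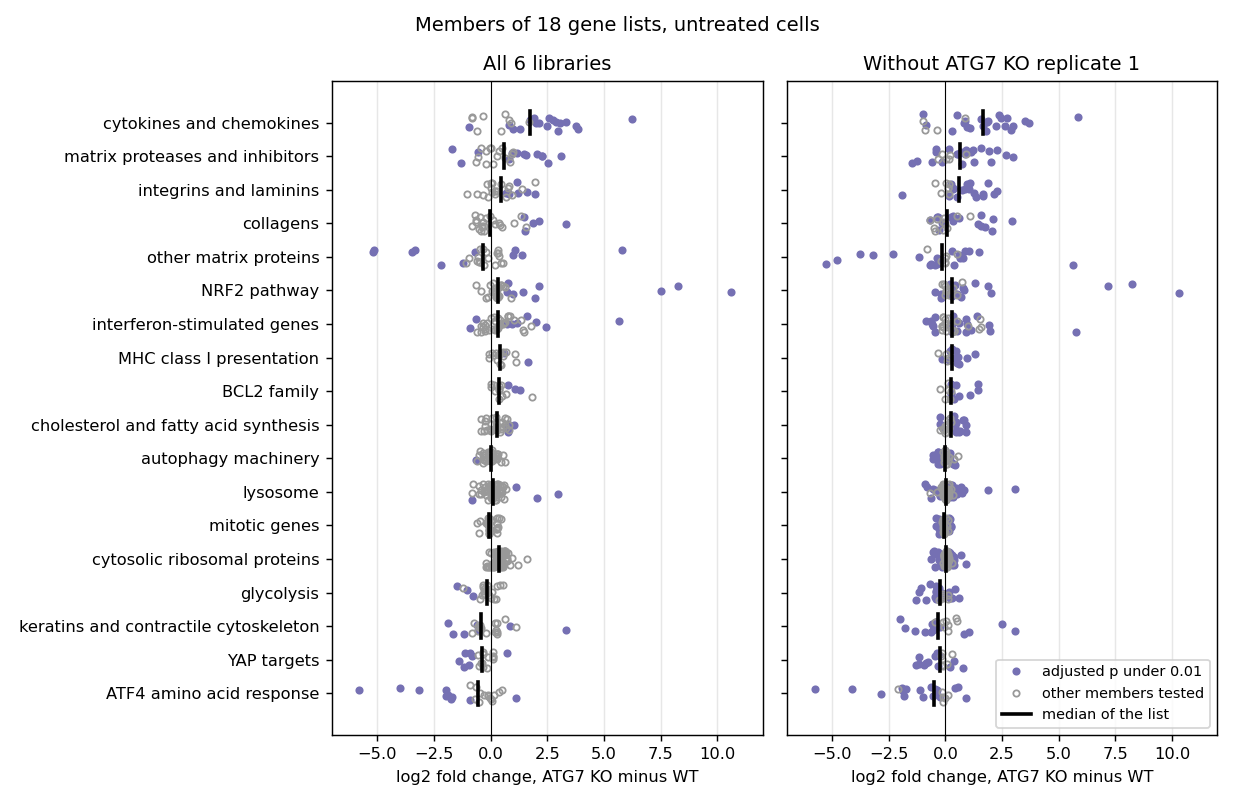
Log2 fold change of ATG7 KO minus WT (horizontal axis) of the members of 18 gene lists, with all 6 untreated libraries on the left and without ATG7 KO replicate 1 on the right. Filled points passed, bars are medians, and the median of the cytokine list (1.74 and 1.67) is the furthest above 0 and that of the ATF4 list (-0.58 and -0.52) the furthest below it. The points of AKR1C1 and AKR1C2 are fitted values against WT libraries without reads and are not measured folds.

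Summed levels of markers of other cell types follow. The summed level of 10 corneal and keratinocyte markers was 3.15 to 3.55 FPKM in WT and 19.2 to 27.4 FPKM in ATG7 KO cells, of which KRT17 alone made up most, while KRT12, KRT13, KRT4 and KRT6A were at 0 in all 6 libraries. KRT17, a keratin of stressed epithelia, rose from 3.39, 3.0 and 3.45 FPKM to 27.1, 19.0 and 20.2 FPKM (log2 fold change 2.75, standard error 0.16, adjusted p = 0.000161). Among keratins and the contractile cytoskeleton 2 of 23 rose (0 to 4) and 5 fell (1 to 12), with a median of -0.44, and 4 of 24 rose and 12 fell without ATG7 KO replicate 1. The keratin KRT19 fell from 5.60, 5.47 and 5.64 FPKM to 2.0, 1.83 and 1.41 FPKM (log2 fold change -1.68, adjusted p = 0.000678), the smooth muscle actin ACTG2 had a log2 fold change of -1.19 (adjusted p = 0.0017) and the hair keratin KRT81 of 3.31 (adjusted p = 0.00129). The sum of 9 fibroblast markers was 654 to 687 FPKM in WT and 393 to 543 FPKM in ATG7 KO cells. A sum is set by its most abundant members, and the markers did not fall together. Of 8 tested, 2 rose (1 to 3), LUM among them, and 1 fell (1 to 4). The sum of 22 lens epithelium markers was 48.4 to 50 FPKM in WT and 40.2 to 44.1 FPKM in ATG7 KO cells. Of 7 tested, none passed, while 1 was higher and 2 were lower at an unadjusted p under 0.05 in the edgeR test. DESeq2 called 1 higher and none lower. Without ATG7 KO replicate 1, 1 of 8 rose and 3 fell. The sum of 12 immune and endothelial markers was 1.25 to 1.61 FPKM in WT and 2.81 to 3.45 FPKM in ATG7 KO cells. The sum of 15 neural markers was 151 to 171 FPKM and 167 to 311 FPKM, which overlap, and DCX, ELAVL4, NEFM and STMN2 were at 0 in all 6 libraries. Of 6 neural markers tested, 2 rose (0 to 3) and none fell, with a median of 0.88. None was lower at an unadjusted p under 0.05 in the edgeR test or with DESeq2. Without ATG7 KO replicate 1, 3 rose and none fell, beside 18.2% and 17.9% of all genes. The sum of 11 pigment epithelium and melanocyte markers also overlapped, at 2.34 to 2.93 FPKM and 1.5 to 2.56 FPKM, with OTX2, RLBP1 and TTR at 0. The part of these markers in the other results was not tested.

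Many calls were lost when 1 library was left out, about as many for each of the 3 WT libraries. Of 137 genes named here that passed, 64 passed in each of the 6 fits that leave out 1 library, and 73 lost the call in at least 1 of them. The 64 are LAMP3, CTSS, CXCL1, CXCL2, CXCL5, CXCL6, CXCL8, IL1B, IL1A, IL6, CSF3, CSF2, IL11, C3, IFI44L, SLC7A5, NUPR1, PSAT1, VLDLR, BEX1, IGFBP3, G0S2, SRPX, GFRA1, OXTR, AK4, MELTF, RGS4, JAM3, AKR1C1, AKR1C3, AKR1C2, EDNRB, COL16A1, COL7A1, LAMB3, LUM, BGN, LOX, ABI3BP, NRCAM, SERPINB2, PLAU, MMP9, TIMP3, INHBA, GREM1, CTGF, FLT1, FGF5, WNT5A, STC1, DUSP4, DUSP2, FTH1, ABCC3, TNFRSF21, PLK2, HMGA1, HMGA2, PDK1, CA9, KRT17 and KRT19. Without WT replicate 1, 2 or 3 the call was lost for 69, 70 and 69 genes, and without ATG7 KO replicate 2 or 3 for 35 and 33. With ATG7 KO replicate 1 left out it was lost for CBS alone.

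The genes that passed were spread unevenly over the chromosomes. Without ATG7 KO replicate 1, 345 of 672 tested genes on chromosome 9 were lower (51.3%), beside 17.9% of all genes, and 301 of 855 on chromosome 3 (35.2%). On chromosome 14, 190 of 498 genes were higher (38.2%), beside 18.2% of all genes. With all 6 libraries 10.9% of the genes on chromosome 9 and 8.81% on chromosome 3 were lower, and 15.9% on chromosome 14 were higher. The H2O2-treated libraries, which are separate libraries of the same lines, had 48.9% of the genes on chromosome 9 and 36.6% on chromosome 3 lower, beside 27.9% of all genes, and 45.1% on chromosome 14 higher, beside 27.7%. Chromosomes 19 and 17 then had 42.8% and 38.0% of their genes lower. In the untreated libraries chromosome 19 had 5.52% lower with all 6 libraries and 27.4% without replicate 1, and chromosome 17 had 3.29% and 23.7%. Median log2 fold changes on chromosomes 9, 3 and 14 were -0.33, -0.16 and 0.20 in the untreated libraries without replicate 1. IL33, PSAT1, VLDLR, CDKN2B and CA9 lie on chromosome 9, PIK3R4, PRKCI, OXTR, MELTF, FBLN2, ABI3BP and AMOTL2, all lower, on chromosome 3, and NFKBIA, BCL2L2, PSMB5, NPC2 and JAG2 on chromosome 14. JAG2 was lower on a chromosome with more higher genes, and LAMP3, NFKBIZ, COL7A1, CLDN1 and WNT5A on chromosome 3 were higher. The part of the chromosome in these results was not tested.

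**Figure D3:**
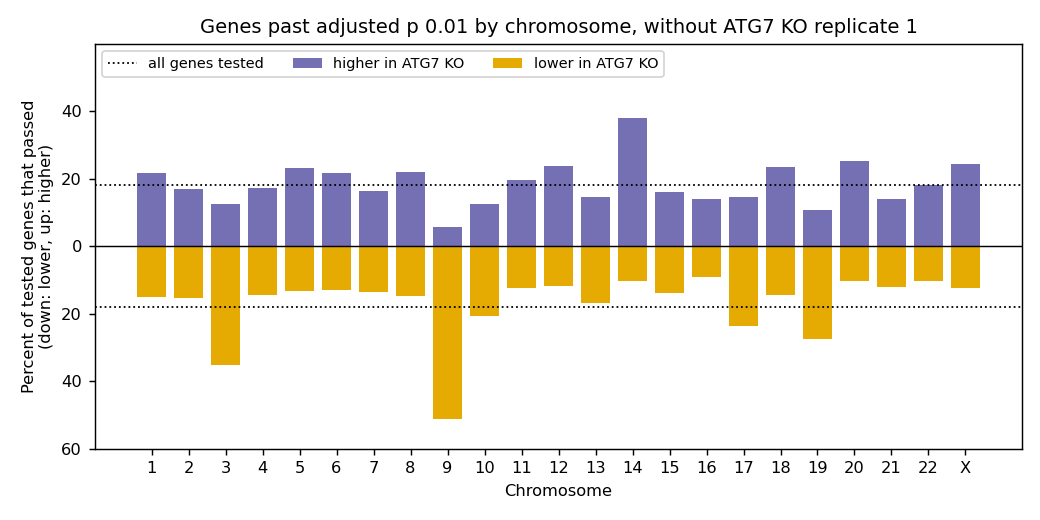
Percent of tested genes on each chromosome that passed as higher (upward bars) or lower (downward bars) in untreated ATG7 KO cells, without ATG7 KO replicate 1, with the percent over all genes as dotted lines. Chromosome 9 reaches 51.3% lower, chromosome 3 35.2% lower and chromosome 14 38.2% higher.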

How the data were processed

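Deposited counts are whole reads that the authors assigned to each gene, with no normalization. Deposited FPKM values come from the authors, who scaled them by gene length and library size. The submitters' processing notes name HISAT2 2.0.5, featureCounts 1.5.0-p3 and GRCh38 (hg38). RNA was taken with Trizol and libraries were made with the NEBNext Ultra kit. The strand setting and the handling of multi-mapping reads are not given in the sources used here, so overlapping, antisense and paralogous genes can share reads. Samples were grouped by genotype and treatment from their labels, with 3 libraries per group.

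Low counts were removed with filterByExpr (minimum 10) and library sizes were scaled by TMM. Each comparison was fitted on its own 6 libraries with edgeR 4.0.16 (robust quasi-likelihood, no covariates, R 4.3.3, limma 3.58.1) and Benjamini-Hochberg adjustment over all genes tested. The scripts were tested on simulated data. Standard errors are the log2 fold change divided by the root of the F statistic. The thresholds follow the study, which used DESeq2. DESeq2 1.42.0 is an alternative here, beside RLE scaling, upper quartile scaling, all genes without the count filter, a fit of all 12 libraries, a gene length offset (lowess, span 0.3), an adjusted p of 0.05, no FPKM minimum, the replicate number as a block and each library left out in turn. Depth limits genes with few reads, for which read totals are given.

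Named genes are ATG7, the 10 highest and 10 lowest differentially expressed genes without overlap and above 1 FPKM in both groups, list anchors, up to 4 members per list with the largest changes above 1 FPKM, and the 5 most abundant genes past 2-fold in each direction. Other genes of the 49 lists (CXCL1, CXCL2, CXCL3, IL1A, IL1R1, CSF2, IL11, LIF, IL33, PSAT1, PHGDH, CHAC1, ALDH1L2, CEBPB, AKR1C2, GCLM, TXNRD1) were chosen after their values were seen, as were EDNRB, RNF180, NFKB1, NFKBIB, REL, TSLP, CXCL10 and FGF21. The members and lists were chosen with earlier results of these data known. Lists are described by counts and medians, with no test of the list. Promoter sequences are those of RefSeq, matched by symbol.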

Additional observations from a re-analysis of the deposited data

Results flagged for a closer look

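In 12 of the genes named in the report, of which 153 were tested, the ATG7 KO and WT libraries did not overlap in untreated or in H2O2-treated cells. The 3 ATG7 KO libraries lay on opposite sides of the 3 WT libraries in these 2 settings. The share of all genes that do so was not computed, so 12 is not set against a background. In untreated cells alone, the ATG7 KO libraries lay above WT for 22.4% of the genes tested and below for 22.9%. Whether the differences themselves differ was not tested. Log2 fold changes are given as ATG7 KO minus WT, untreated first. NFKBIA, the inhibitor IκBα, had 1.34 and -0.67. TNFAIP3, or A20, had 1.11 and -0.53. NFKBIB, a further IκB protein, had 0.51 and -0.21, and its untreated difference did not pass. The cytokines IL1A and LIF had 1.98 and -0.18, and 0.81 and -1.77. NOG, the BMP antagonist noggin, had 1.07 and -1.08. The receptor FGFR3 had -1.17 and 0.32, and the NOTCH ligand JAG2 had -1.0 and 0.66. HMOX1, the heme oxygenase, had 0.32 and -0.30, and its untreated difference did not pass. PMAIP1, or NOXA, had 0.76 and -0.96. The cholesterol synthesis enzymes MSMO1 and HMGCS1 had 0.76 and -0.62, and 0.75 and -0.34. Groups of 3 libraries are too small for the test of a single outlying library.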

How the results depend on the processing

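All 137 named genes that passed kept the sign of their log2 fold change in every alternative that gave a value. The counts of genes moved more. Where edgeR passed 679 higher and 503 lower genes, DESeq2 passed 1241 and 1066, the fit of all 12 libraries 1665 and 1489, an adjusted p of 0.05 gave 1499 and 1345, and the gene length offset 983 and 815. Leaving out 1 library gave between 180 and 2891 higher and between 107 and 2843 lower genes, and between 154 and 426 higher and between 88 and 259 lower differentially expressed genes, the highest without ATG7 KO replicate 1 and the lowest without a WT library. With a replicate block 313 were higher and 186 lower, 255 and 139 of them differentially expressed. Of the 137 named genes, 35 lost the call with this block. The gene length offset and upper quartile scaling each took the call from 2 of them, and RLE scaling and the fit of all 12 libraries each from 1. Deviations of same-numbered libraries from their group means had correlations of 0.051, 0.101 and -0.046 across genes, so the numbers are not taken to pair the libraries. Between H2O2-treated cells the fit of all 12 libraries gave 2355 and 2521 in place of 4414 and 4433. Of 8 named genes checked in that comparison, 1 lost the call in that fit. Some log2 fold changes near 0 turned sign. ATF4 was at 0.13, at -0.02 with the gene length offset and at -0.08 (without ATG7 KO replicate 1) to 0.24 with 1 library left out. ITGB1 was at 0.01 and at -0.03 to 0.04 with 1 library left out, below 0 without WT replicate 2 and, at -0.00, without ATG7 KO replicate 3. The cause of these moves was not tested. RLE scaling, upper quartile scaling and no filter on low counts left the counts within 1.5 times.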
